A study of Drosophila melanogaster with 4 samples.

Results

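Broad HP1b domains are the wide enriched regions of an HP1b map from adult fly heads, defined here as regions of 5 kb or more on the chromosome arms 2L, 2R, 3L, 3R and X. They were chosen by width alone from a combined list of enriched regions, called clusters here. Of the 7807 enriched clusters of that list, 7504 lay on the 5 arms, and 514 of these (6.85%) were at least 5000 bp wide. The other 6990 clusters on the same arms, called narrower clusters, serve for comparison. Because width chose the domains, their widths and the scores of the same list are given as a description.

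The map came from chromatin immunoprecipitation followed by sequencing (ChIP-seq) of head nuclei from adult Drosophila melanogaster of mixed stage, of the wild-type strain Oregon-R (Oregon-R-modENCODE). The groups were HP1b ChIP with antibody Q4114 (2 samples, replicates 1 and 2) and input chromatin without antibody selection (2 samples), and both groups carry the same wild-type genotype. Heads were obtained by sieving whole flies from population cages, so every value is an average over all cell types of the head. On the 5 arms replicate 1 had 6484 clusters, replicate 2 had 6266, and the combined list is named for the set of replicates. The way of combining (not given in the sources used here) may have drawn on the same reads, so the replicate lists are not taken as independent of it. Read depth is unknown from lists of regions, and no list of input regions was used, so the inputs enter no comparison. Nothing in the labels ties the replicates to separate collections of flies, and their spread may be technical.

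HP1 proteins are small chromatin proteins with a chromodomain, which in HP1a binds methylated lysine 9 of histone H3, and a chromoshadow domain, which forms dimers and recruits partners. Drosophila has several paralogs: HP1a is concentrated in pericentric heterochromatin and chromosome 4, HP1c lies mainly in euchromatin, and HP1b is found in both. A narrow region of enrichment can mark a single promoter or enhancer, whereas a broad one spans several kilobases of chromatin. No genes and no sequences are given for the domains, because the lists are on FlyBase release 5 and no genome or annotation of that release was used here.

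Width was a continuous property with no step at 5 kb. The narrowest domains were 5001 bp on X, from 4592931 to 4597931, and 5007 bp on 2R, from 10819279 to 10824285, and on X, from 10143101 to 10148107. Just outside lay clusters of 4999 bp on 3R, from 1646575 to 1651573, of 4998 bp on X, from 12981293 to 12986290, and of 4996 bp on 3L, from 16079605 to 16084600. The numbers of clusters by width ran from 885 at 3 to under 4 kb and 475 at 4 to under 5 kb to 228 at 5 to under 6 kb, 164 at 6 to under 7.5 kb, 81 at 7.5 to under 10 kb and 41 at 10 kb or more. The median domain was 6177 bp wide, with quartiles of 5506 and 7428 bp. Although they were few, the domains held 17.4% of all cluster sequence on the arms, 3545 kb of 20.3 Mb.

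X carried the most broad domains of the 5 arms, for its length and for its number of clusters. It held 173 domains, against 91 for 2L, 89 for 2R, 79 for 3L and 82 for 3R. X thus had 33.7% of the domains and 18.8% of the length of the 5 arms. Per Mb there were 7.72 domains on X, against 3.95 for 2L, 4.21 for 2R, 3.22 for 3L and 2.94 for 3R. Narrower clusters were more even, with 66.1 per Mb on X and 57.0 per Mb on the 4 autosomal arms together. The density on X was 2.19 times that of the autosomal arms for broad domains and 1.16 times for narrower clusters.

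In the replicate lists X stood apart by more than the spread of the replicates. Clusters of 5 kb or more made up 9.83% of X clusters against 5.09% of autosomal-arm clusters in replicate 1. In replicate 2 the shares were 9.35% on X and 5.05% on the autosomal arms. The nearest arm, 2L, had 5.72% in replicate 1 and 6.51% in replicate 2. The order of 2R, 3L and 3R was the same in both replicates, but their shares lay close together, between 4.29% and 5.26%. In the combined list the share was 10.4% on X, with an exact 95% binomial interval of 9.01% to 12.02%, against 5.83% (5.24% to 6.46%) on the autosomal arms. These intervals treat clusters as independent, which neighbours are not, and cover counting error only. Joining clusters separated by 1000 bp or less raised the number of regions of 5 kb or more to 962, of which 269 lay on X.

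**Figure D1:**
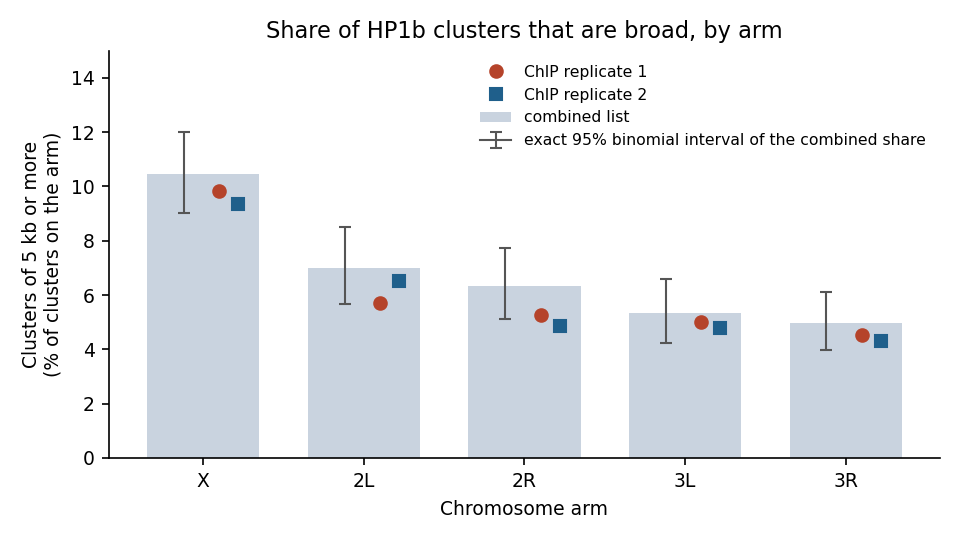
Share of the clusters of each arm that are 5 kb or wider (y axis, %), for the 5 arms (x axis). Bars give the combined list with exact 95% binomial intervals, circles replicate 1 and squares replicate 2; X lies above every autosomal arm in all 3 lists, at 9.35% to 10.4%.

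Domains on X were more frequent, but their median width lay within the range of the other arms. Median domain width was 6212 bp on X, against 6213 bp on 2L, 6340 bp for 2R, 5918 bp for 3L and 6004 bp for 3R. The upper quartile was 7966 bp on X and 7962 bp on 2R, against 7434 bp for 2L, 6853 bp for 3L and 6876 bp for 3R. Domains of 10 kb or more numbered 16 on X, against 6 for 2L, 12 for 2R, 2 for 3L and 5 for 3R. The 3 widest of X spanned 22.7, 21.6 and 17.1 kb, and the 3 widest of 2R 19.7, 14.1 and 13.0 kb. On 3R they spanned 19.9, 13.3 and 12.7 kb, on 2L 13.2, 12.2 and 12.1 kb, and on 3L 10.4, 10.3 and 9.59 kb. On 3L even the widest domain, from 695879 to 706304, was thus narrower than the third of each other arm.

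Several of these widest domains had nearly the same extent in all 3 lists. The X domain from 7584459 to 7606100 was 21642 bp in the combined list, 21504 bp in replicate 1 and 21585 bp in replicate 2. On 2L, the domain from 2191292 to 2204530 was 13239 bp wide and had single clusters of 13166 bp in replicate 1 and 13226 bp in replicate 2. The 3L domain from 9411606 to 9421192, of 9587 bp, had single clusters of 9556 and 9549 bp. Others were whole in 1 replicate only. The 3R domain from 5901559 to 5921422 (19864 bp) was a single cluster of 19883 bp in replicate 1, while the widest cluster of replicate 2 there was 14215 bp. The 2R domain from 17583430 to 17603146 (19717 bp) had a cluster of 19593 bp in replicate 1, and 2 clusters in replicate 2 of which the wider was 16480 bp.

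By the authors' score, broad domains were mostly of middle to high rank. Their median score was 1.70, with quartiles of 1.27 and 2.13, against 0.728 (0.378 and 1.46) for narrower clusters. Its formula and scale being unknown, it only ranks clusters within a list. Among the 100 highest-scoring clusters of the arms 3 were broad, and among the 500 highest 46 were, where domains are 6.85% of all clusters. Score rose with width up to about 5 kb and little beyond it. Its median was 0.300 at 1 to under 2 kb, 1.02 at 2 to under 3 kb, 1.36 at 3 to under 4 kb and 1.57 at 4 to under 5 kb. In the domains it was 1.65 at 5 to under 6 kb, 1.66 at 6 to under 7.5 kb, 1.83 at 7.5 to under 10 kb and 1.77 at 10 kb or more. Spearman's rho of width and score was 0.108 across the 514 domains and 0.750 across the 6990 narrower clusters. Among domains it was -0.0499 across the 173 of X and 0.175 across the 341 of the autosomal arms. The groups were cut by width itself, which bears on this contrast. Width and score come from the same call on the same libraries and neighbouring clusters share signal, so no p-value is given.

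All 5 domains of highest score were less than 6 kb wide, as were 228 of all 514 domains. The 5 were 3L from 4623768 to 4629239 (score 3.40), 3L from 14042046 to 14047414 (3.34), X from 5222262 to 5227850 (3.28), 3L from 16797030 to 16802611 (3.12) and X from 9577473 to 9583003 (3.11). The first of these ranked 61 among all clusters of the arms. By the highest-scoring replicate cluster at each site, the medians were 1.73 in replicate 1 and 1.84 in replicate 2 for broad domains, against 0.986 and 1.003 for the narrower clusters with a counterpart. Across the 513 domains found in both replicates these scores had a Spearman's rho of 0.923, given as a description. Across the 5184 narrower clusters found in both it was 0.943.

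**Figure D2:**
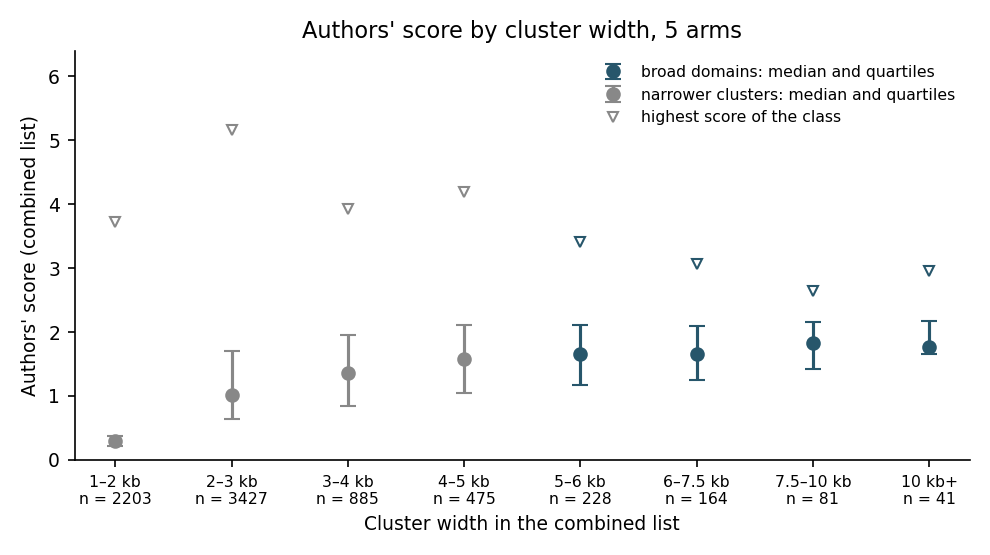
Authors' score in the combined list (y axis) by cluster width (x axis) on the 5 arms, with n clusters per class. Points are medians, bars quartiles and triangles the highest score of each class; the median climbs to 1.57 in the class just under 5 kb and stays between 1.65 and 1.83 in the 4 classes of broad domains.

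Nearly every broad domain was found in each replicate, but as a wide single cluster in fewer. Replicate 1 had a cluster at all 514 domains and replicate 2 at 513. Of the narrower clusters, 1189 of 6990 had no counterpart in replicate 1 and 1401 had none in replicate 2. Of domain sequence, 93.5% ± 0.997 lay under replicate clusters, against 82.9% ± 2.46 of the sequence of narrower clusters (SD, n = 2). The difference exceeded the spread of the replicates but came mostly from the narrowest class. Clusters of 1 to under 2 kb were covered over 45.7% ± 6.06, whereas those of 4 to under 5 kb were covered over 92.3% ± 1.51 (SD, n = 2). The latter differs from the domains by less than that SD, but within each replicate the domains were higher. They had 94.2% against 93.3% in replicate 1 and 92.7% against 91.2% in replicate 2. The replicate lists hold no cluster under 1301 bp, which bears on the narrowest class.

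At least 90% of the domain was covered in 412 of 514 domains in replicate 1 and in 382 in replicate 2. Under 50% was covered in 1 domain in replicate 1 and in 5 in replicate 2. The outer borders were close. Of the outer edges, 71.7% of 1028 in replicate 1 and 63.1% of 1026 in replicate 2 lay within 100 bp of the domain's edge, and the median distances were 41 and 59 bp. Only 62 edges in replicate 1 and 61 in replicate 2 were more than 1 kb away. The replicate border lay inside the domain at 73.8% of edges in replicate 1 and 89.5% in replicate 2.

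Reaching 5 kb in a replicate was less frequent than being covered. A replicate cluster of 5 kb or more lay at 388 domains in replicate 1 and 367 in replicate 2, 73.4% ± 2.89 of all domains (SD, n = 2). It did so in both replicates at 318 domains (61.9%), in replicate 1 only at 70, in replicate 2 only at 49 and in neither at 77. The share reaching 5 kb in both rose with width, from 45.2% at 5 to under 6 kb through 65.2% and 82.7% to 100% of the 41 domains of 10 kb or more. A wider domain can lose more of its width and still hold 5 kb, so the fixed minimum favours this rise. With minimums of 7500 and 10000 bp for domains and replicate clusters alike, 65.98% and 57.3% of domains held such a cluster, as means of the replicates. The share reaching 5 kb in both was 64.7% on X (112 of 173) and 60.4% on the autosomal arms (206 of 341). The 77 domains with no wide replicate cluster had a median width of 5540 bp. Of these, 32 were split in both replicates, 15 were split in 1 replicate, and 30 were a single cluster of less than 5 kb in each replicate.

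In the other direction, almost all wide replicate clusters lay in a domain. This held for 391 of the 396 clusters of 5 kb or more in replicate 1 and for 369 of 375 in replicate 2. The other 11 lay mostly at the threshold: 8 of them were at a single combined cluster, which was 4453 to 4996 bp wide. The remaining 3 lay over 2 combined clusters each, and the widest of the 11 was 7373 bp, on 2L from 5300368 to 5307740 in replicate 1.

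Splitting affected a minority of the domains in each replicate. In replicate 1, 421 domains were a single cluster, 90 were 2 clusters and 3 were 3 clusters. In replicate 2, 412 were a single cluster, 96 were 2 clusters and 5 were 3. Splits were found in 18.9% ± 1.10 of domains, against 0.701% ± 0.0202 of narrower clusters (SD, n = 2). A narrow cluster has little room for 2 replicate clusters of at least 1301 bp, so width limits the second value. The share rose across widths, from 7.16% ± 0.893 at 4 to under 5 kb to 13.6% ± 0.620 at 5 to under 6 kb and 37.8% ± 8.62 at 10 kb or more (SD, n = 2). On X 21.1% ± 3.68 of domains were split and on the autosomal arms 17.7% ± 0.207 (SD, n = 2), a gap within 1 SD of the X value. Within each replicate X was higher, with 18.5% against 17.9% in replicate 1 and 23.7% against 17.6% in replicate 2.

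The replicates did not always split the same domain. Of the 150 domains split in at least 1 replicate, 44 were split in both and 106 in only 1. The gaps between the pieces were short, with medians of 217 bp over 96 gaps in replicate 1 and 197 bp over 106 gaps in replicate 2, and 4 and 10 of them exceeded 1 kb. Counting gaps that lay within 100 bp of each other, 40 of 96 gaps in replicate 1 had a counterpart in replicate 2, and 41 of 106 the other way. The longest gap was 2506 bp, in replicate 2.

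**Figure D3:**
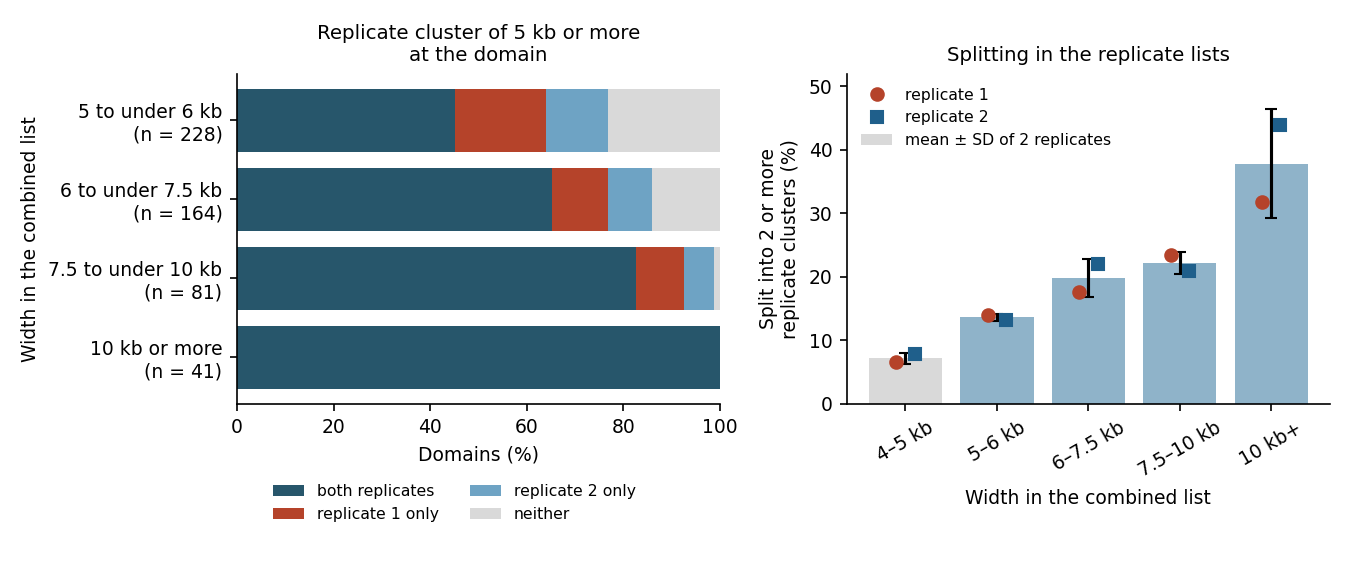
Left, share of domains (x axis, %) in 4 width classes (y axis) with a replicate cluster of 5 kb or more in both replicates, in replicate 1 only, in replicate 2 only or in neither. Right, share of clusters split into 2 or more replicate clusters (y axis, %) by width (x axis), as the mean ± SD of 2 replicates (bars), with circles for replicate 1 and squares for replicate 2; it climbs from 7.16% just under 5 kb to 37.8% at 10 kb or more.

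The domains cut into most pieces show both kinds of outcome. The widest domain of all, on X from 8779736 to 8802437, was cut at the same places in both replicates. Replicate 1 had clusters of 15927, 1735 and 3470 bp there, and replicate 2 had 16841, 1760 and 3153 bp. On X from 5785019 to 5797207 (12189 bp), replicate 1 had 3 clusters of 1973, 3475 and 5582 bp, whereas replicate 2 had 1533 and 9558 bp. The 2R domain from 4833876 to 4840956 (7081 bp) was 2 clusters of 2126 and 3489 bp in replicate 1 and 3 of 2185, 1374 and 3354 bp in replicate 2, so neither replicate held a wide cluster there. The X domain from 6587405 to 6600922 and the 2R domain from 1234996 to 1247854 were 2 clusters in each replicate.

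The largest disagreements between replicates were at weak domains of less than 6 kb. On 3R from 5774163 to 5779542 (5380 bp, score 0.441), replicate 1 had a cluster of 5705 bp and replicate 2 had none, the only domain absent from a replicate. On 2R from 394255 to 400148 (5894 bp, score 0.508), replicate 1 covered 36.6% and replicate 2 98.5%. A 2R domain from 7059171 to 7064355 (5185 bp, score 0.351) had 92.8% of its length covered in replicate 1 and 31.7% in replicate 2. All 3 scores lay below the lower quartile of the domains.

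**Figure D4:**
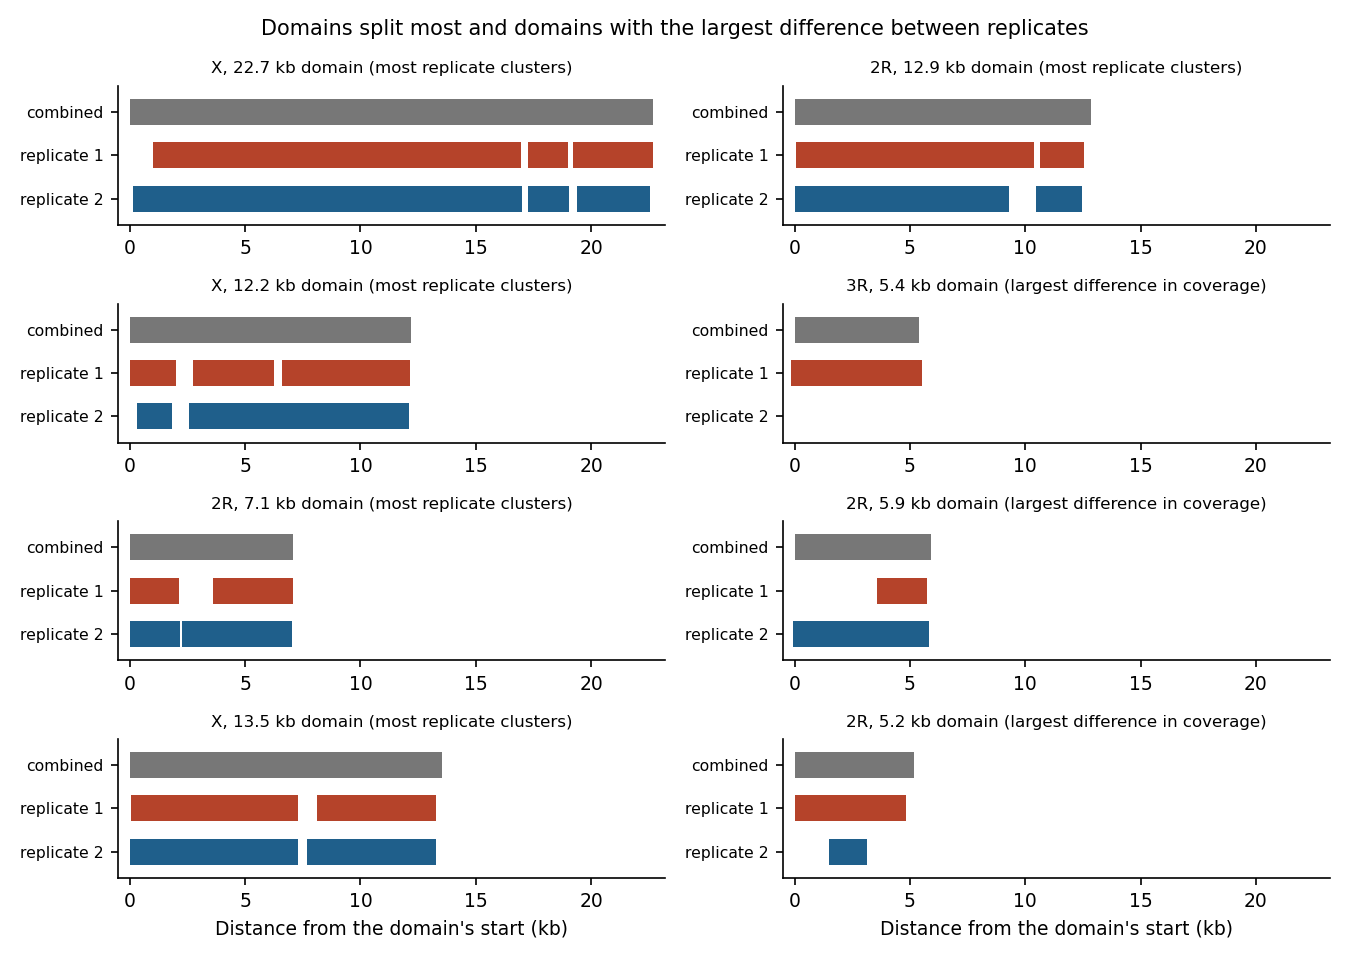
The 5 domains with most replicate clusters and the 3 with the largest difference in coverage, as bars along the distance from the domain's start (x axis, kb) in the combined list, replicate 1 and replicate 2 (y axis). The 22.7 kb X domain is cut alike in both replicates and the 5.38 kb 3R domain has no replicate 2 cluster; the gap of 30 bp between the last 2 replicate 2 clusters of the 7.08 kb 2R domain is too short to see.

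Along the arms the domains were unevenly spaced. Edge to edge, the median distance between consecutive domains was 56.2 kb on X, against 133 kb for 2L, 177 kb for 2R, 201 kb for 3L and 265 kb for 3R. A gap of 10 kb or less separated 18.6% of consecutive domains on X (32 of 172) and 9.79% on the autosomal arms (33 of 337). Counted by domain, 34.1% of X domains and 17.9% of autosomal domains had another domain within 10 kb. On 3L this was 7.59%, on 3R 13.4%, on 2L 24.2% and on 2R 24.7%. A higher density by itself shortens these distances on X.

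In contrast, 11 gaps between domains were longer than 1 Mb, 3 on 2L, 5 on 3L and 3 on 3R, and none was on 2R or X. The longest ran from 6260387 to 8048200 of 3L (1.79 Mb) and held 91 narrower clusters. On 3R it ran from 24159322 to 25596840 (1.44 Mb, 85 narrower clusters) and on 2L from 12013185 to 13365165 (1.35 Mb, 75 narrower clusters). The longest on X, from 516672 to 1125025, was 0.608 Mb. None of these held a cluster of 5 kb or more in either replicate, which the choice of gaps without domains nearly fixed. Of such replicate clusters, 391 of 396 in replicate 1 and 369 of 375 in replicate 2 lay in a domain. Narrower clusters in these gaps numbered 50.9 per Mb on 3L, 59.1 on 3R and 55.5 on 2L, near the 57.3, 56.3 and 52.6 per Mb of those whole arms.

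Where domains were frequent, narrower clusters were not consistently so. In 1 Mb bins counted from the centromere end, Spearman's rho between the number of domains and of narrower clusters was 0.305 on X (22 bins), 0.198 on 2L, 0.336 on 3L, -0.330 on 2R and -0.172 on 3R. Neighbouring bins are not independent and share their libraries, so these are descriptions. Between replicates, the number of clusters of 5 kb or more per bin had a rho of 0.880 across 117 bins. X had a median of 7.5 domains per bin and the autosomal arms 3. The fullest bins were X from 12422828 to 13422827 with 16 domains, X from 6422828 to 7422827 with 14 and X from 7422828 to 8422827 with 13.

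Off X, the fullest bins lay next to the centromere on 2R. The first 1 Mb of 2R held 11 domains and the second 12, so 23 of the 89 domains of that arm lay in 2 Mb. Of the clusters in those 2 Mb, 25.8% were broad (23 of 89 clusters), against 5.00% on the rest of 2R. The list of replicate 1 gave 22.1% there and 4.28% on the rest, and that of replicate 2 gave 29.2% and 3.46%. The last 2 Mb of 2L showed the same direction, with 15.9% there and 5.13% on the rest in replicate 1, and 17.9% and 5.76% in replicate 2. The opposite held for 3R: in the first 2 Mb a lone cluster of 129 was broad in replicate 1 and a lone cluster of 128 in replicate 2, against shares of 4.89% and 4.65% on the rest. For 3L the proximal shares were 9.38% in replicate 1 and 8.11% in replicate 2 (3 clusters each), against 4.87% and 4.70% on its rest. For X they were 7.55% against 9.93% on its rest in replicate 1, and 9.62% against 9.34% in replicate 2, so the replicates differed in direction. All these stretches hold few clusters.

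Coverage of domains in those stretches differed between the replicates. In the first 2 Mb from the centromere, replicate 1 covered 86.5% of domain sequence and replicate 2 91.8%, and replicate 2 was higher in 38 of 51 domains. In the rest of the arms replicate 1 covered 95.1% and replicate 2 92.9%, and replicate 2 was higher in 168 of 463. On 2R replicate 1 covered 83.4% and replicate 2 90.7% of the sequence of its 23 proximal domains. The gap between the replicates has one list on each side and so has no replicate check.

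Domains had closer neighbours than narrower clusters on every arm. The nearest cluster of any width lay within 5 kb, edge to edge, at 82.5% of domains (424 of 514), against 69.7% of narrower clusters. The median distance was 1909 bp for domains and 2558 bp for narrower clusters. On X the shares were 87.9% of domains and 75.8% of narrower clusters, and on 2R 87.6% of domains and 71.0% of narrower clusters. The gap was smallest on 3R, with 75.6% of domains and 68.8% of narrower clusters. On 2L it was 76.9% of domains against 64.5% of narrower clusters, and on 3L 78.5% of domains against 67.4% of narrower clusters. The replicate lists, taken by themselves, gave 75.9% ± 0.171 for clusters of 5 kb or more and 65.7% ± 0.184 for narrower ones (SD, n = 2). The change with width was gradual. At 4 to under 5 kb the share was 77.05%, and in the 4 classes of domains it was 79.8%, 86.6%, 82.7% and 80.5%. Where a caller cuts 1 enriched stretch into several clusters, the pieces also count as close neighbours. Joining clusters at gaps of 1000 bp or less lowered the shares to 69.4% for domains and 59.4% for narrower clusters, with the same order.

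In the combined list, neighbours of domains were more often broad themselves than neighbours of narrower clusters on 4 of the 5 arms, X among them. The nearest cluster was itself a domain for 13.04% of domains (67 of 514), against 6.74% of narrower clusters. On X this held for 20.8% of domains and 10.2% of narrower clusters, and on the autosomal arms for 9.09% of domains and 5.81% of narrower clusters. On 3L the order was opposite, with 2.53% of domains (2 of 79) against 5.62% of narrower clusters. It was also opposite on 2L in the list of replicate 2, with 5.63% (4 of 71) for clusters of 5 kb or more against 6.08% for narrower ones. In the replicate lists X had 18.98% and 12.6% in replicates 1 and 2 for clusters of 5 kb or more, against 9.47% and 9.34% for narrower ones. On the autosomal arms clusters of 5 kb or more had 8.11% and 6.85%, against 5.36% and 5.09% for narrower ones. Over all 5 arms the value for broad clusters of replicate 2 was 8.80%, against 5.98% for narrower ones.

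Beyond the first 1000 bp, the surroundings of domains were rich in HP1b clusters to at least 20 kb. In the first 5 kb outside either edge, replicate clusters covered 26.7% ± 1.09 around X domains, against 19.6% ± 0.409 around narrower X clusters (SD, n = 2). Between 5 and 10 kb they covered 32.3% ± 0.795 around domains and 23.7% ± 0.339 around narrower clusters. Between 10 and 20 kb it was 28.5% ± 0.635 around domains and 23.7% ± 0.465 around narrower clusters (SD, n = 2). On the autosomal arms the first 5 kb were covered over 21.01% ± 0.735 around domains and 16.8% ± 0.500 around narrower clusters. From 5 to 10 kb this was 24.5% ± 0.0907 around domains and 19.9% ± 0.513 around narrower clusters, and from 10 to 20 kb 21.7% ± 0.139 around domains and 18.2% ± 0.562 around narrower clusters (SD, n = 2). Each of these differences was larger than the SD of the replicates. Whole X was covered over 17.8% ± 0.420 and the autosomal arms over 13.8% ± 0.458 (SD, n = 2). Next to the edge, coverage lay below these whole-arm values. In the first 500 bp it was 4.45% ± 1.13 around X domains and 4.23% ± 0.963 around autosomal domains (SD, n = 2). From 501 to 1000 bp it was 11.1% and 9.81%. Narrower clusters had the same dip, with 3.95% on X and 3.91% on the autosomal arms in the first 500 bp. In the pooled windows clusters of 4 to under 5 kb lay between domains and narrower clusters. They had 29.4% ± 0.673 at 5 to 10 kb on X and 22.7% ± 0.640 on the autosomal arms (SD, n = 2). In bins of 500 bp they exceeded the domains in places, for example on X with 32.7% against 31.2% at 9001 to 9500 bp. An example on the autosomal arms was 22.3% against 20.2% at 19501 to 20000 bp. Flanks of close neighbours overlap and were then counted for each.

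**Figure D5:**
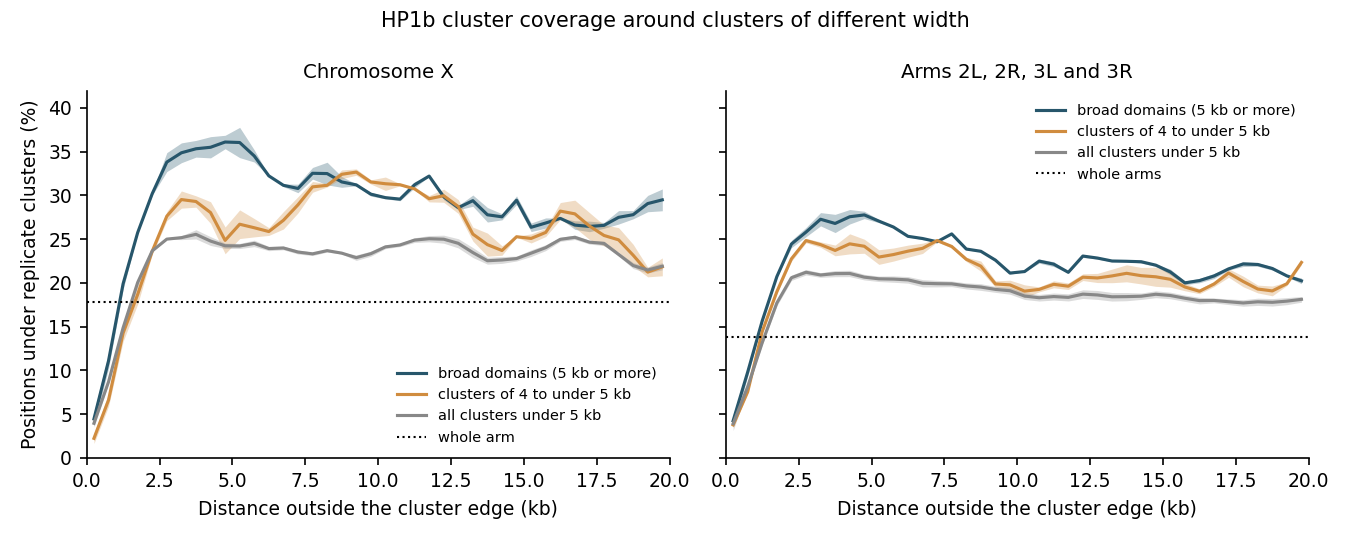
Share of positions under replicate clusters (y axis, %) by distance outside the edge of a combined cluster (x axis, kb, bins of 500 bp, both sides pooled), on X and on the autosomal arms. Lines are means and bands the range of the 2 replicates, and dotted lines the whole-arm mean; from about 3 kb to 7 kb the line of broad domains lies above that of narrower clusters and of clusters of 4 to under 5 kb on both panels.

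Most domains stood alone among narrower clusters, and a minority lay in runs. When a run is a series of domains with no narrower cluster between them, 405 domains had no domain as next neighbour, and 109 lay in 49 runs of 2 to 4. X held 25 of these runs with 54 domains, while 2L had 7, 2R 6, 3L 5 and 3R 6. Domains were 6.85% of all clusters, 10.4% of those on X and 5.83% of those on the autosomal arms. Whether runs were more frequent than these shares alone would give was not tested. Of the 49 runs, 41 were pairs, 5 held 3 domains and 3 held 4.

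The 3 runs of 4 domains were of 2 kinds. The longest stretched over 146 kb of 2R, from 1008726 to 1154795, with domains of 12205, 11912, 5945 and 10909 bp, and a gap of 103 kb lay inside it. The next, also on 2R from 1183957 to 1255313, had domains of 11782, 8307, 12859 and 5671 bp in 71.4 kb with a widest gap of 29.2 kb. Both lie in the second 1 Mb from the centromere end of 2R. On X from 6222051 to 6249478 the 4 domains of 8213, 5393, 5414 and 6212 bp were packed into 27.4 kb, and no gap between them exceeded 911 bp. Replicates covered each X domain of that run over 90.7% to 99.5%. The 8 domains of the 2R runs were covered over 58.4% to 99.1% in replicate 1 and 72.3% to 100% in replicate 2. Scores ran from 1.94 to 2.55 in the X run and from 1.39 to 1.77 in the 2R runs.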

How the data were processed

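Alignment used Bowtie 0.12.7, per the submitters' processing notes, and positions are on FlyBase release 5, per the file headers. The authors deposited, for each cluster, its sequence, start, end and a score of unknown formula and scale. The cluster caller, its threshold and the use of the inputs are likewise not given in the sources used here.

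Clusters typed as enrichment were split at a width of 5000 bp. Replicate clusters were assigned to a domain at 1 bp of overlap, and distances between clusters are bases between edges. Distances to the end of an arm are counted from the start of the cluster. Positions next to centromeres have low coordinates on 2R and 3R and high ones on 2L, 3L and X. Interval functions were tested on simulated lists. No test was run, since the choice used widths from the same libraries, so values are given with the SD of 2 replicates. The members, lists and named regions (the 3 widest per arm, the 5 of highest score, the 5 most split, the 3 with most unequal coverage, the longest run and those at the threshold) were chosen with earlier results of these data known. Longest gaps, fullest bins and the stretches next to centromeres were chosen after their values were seen. Python 3.11.15, numpy 2.4.6, pandas 2.3.3, scipy 1.17.1 and matplotlib 3.10.9 were used.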

Additional observations from a re-analysis of the deposited data

How the results depend on the processing

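X exceeded the autosomal arms in its share of broad clusters under all 8 alternatives. Domains exceeded narrower clusters in the other measures under every alternative run. For splits and wide replicate clusters width largely sets that order, since clusters under the minimum have little room for either. The sizes moved, and except where construction fixes it the cause was not tested. With width minimums of 4000, 7500 and 10000 bp, X held 27.6%, 41.8% and 39.02% of domains, the broad share was 16.5%, 3.08% and 0.966% on X, against 12.2%, 1.21% and 0.427% on the autosomal arms, 13.2%, 27.5% and 37.8% of domains were split, 76.6%, 65.98% and 57.3% held a replicate cluster of that minimum, and 17.4%, 4.92% and 4.88% had a broad nearest cluster. At 10000 bp, 94.6% of domain length was covered. Keeping clusters covered over at least 50% in each replicate gave broad shares of 14.5% on X and 7.50% on the autosomal arms, and 73.2% of domains with a cluster within 5 kb. Joining at gaps of 1000 bp or less gave 27.96% of domains on X, broad shares of 19.5% and 13.7%, 69.4% with a cluster within 5 kb, 20.2% with a broad nearest cluster, 86.1% of length covered, 63.7% split and 37.99% with a wide replicate cluster; joining makes wider regions by construction. Within 2 kb and 10 kb, 50.8% and 93.4% of domains had a neighbour. A broad nearest cluster was found for 20.8% of domains on X alone and 9.09% on the autosomal arms alone. Without replicate 1 or replicate 2 in turn, the other replicate's own list took the place of the combined list. Of its clusters of 5 kb or more, 33.9% to 34.6% lay on X, and the broad shares were 9.35% to 9.83% and 5.05% to 5.09%. A cluster lay within 5 kb for 75.8% to 76.0% of them, and the nearest cluster was broad for 8.80% to 11.9%. At the domains of the combined list, single replicates gave 92.7% to 94.2% for length covered, 18.1% to 19.6% for splits and 71.4% to 75.5% for wide replicate clusters. These last ranges restate the replicate values behind each mean and SD. No paired analysis was possible because only ChIP samples carry values used here. With depth unknown, weak domains cannot be graded by reads.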

Other observations

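The last domain of 3L was the most isolated, a choice made after the values were seen. It spanned 24525945 to 24532508 (6564 bp, score 2.39). Its start lay 17612 bp from the end of the arm, and its nearest cluster lay 300.2 kb away. Replicate 1 covered 93.4% of this domain and replicate 2 99.6%. The next most isolated domains were both on 2L, from 22731855 to 22738484 and from 22644763 to 22653147, 38.0 and 33.5 kb from their nearest cluster. Their starts lie 280 and 367 kb from the end of the arm.

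The 12 regions of the combined list typed as depletion lay 16.4 to 271 kb from the nearest broad domain. For scale, domains covered 2.98% of the 5 arms, and consecutive domains lay a median of 126 kb apart. Whether other positions lie nearer to domains was not tested.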
